A study of Mus musculus with 4 samples.

Results

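Endosomes and transport vesicles are moved, coated, tethered and fused by a few large protein families, and 129 of the 11754 gene symbols listed in these libraries carry the names of 7 of them. The genes were chosen by name, as every symbol that starts with Arf, Chmp, Rab, Snx, Stx, Vamp or Vps, then a number, then at most 1 letter. Of these 129 symbols, 103 had a count in at least 1 library, among 7236 symbols with counts in all. The remaining 26 were listed at 0 in all 4 libraries. The largest family was Rab with 42 symbols, followed by Snx and Vps with 28 each, Stx with 12, Chmp with 7, and Arf and Vamp with 6 each. The rule goes by name and not by function, and Vps72, a subunit of a chromatin remodelling complex, entered through it.

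Alveolar macrophages are the phagocytes that live in the air spaces of the lung. Their mRNA was counted by SAGE (serial analysis of gene expression), where a short tag next to an NlaIII site (CATG) stands for a transcript. The Day 21 AM libraries came from BALB/c mice with lung metastases, 21 days after intravenous injection of BNL, a hepatocellular carcinoma cell line of the mouse. The Pre AM libraries came from untreated BALB/c mice without lung metastasis. The labels call all mice WT and mention no sham injection, so the effects of injection and of metastases cannot be told apart. Each group had 2 libraries, and the labels do not say whether these came from separate mice or pools. The p-values therefore reflect no more than the spread of these 4 libraries, and that spread may be technical. In such bulk samples, fewer cells of a type and less RNA per cell cannot be told apart.

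Arf and Rab proteins are small GTPases that switch between an inactive and a membrane-bound active form. Arf proteins recruit vesicle coats, and each Rab marks a set of compartments and recruits tethers and motors to it. Sorting nexins (Snx) and the retromer subunits Vps26, Vps29 and Vps35 return cargo from endosomes, and the ESCRT machinery, which includes the Chmp proteins, buds vesicles into the endosome lumen. Syntaxins (Stx) and Vamp proteins are SNAREs, which pull a pair of membranes together for fusion. In macrophages the same machinery carries phagosomes and endosomes toward the lysosome.

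The total was 1783814 and 1630776 tags in Day 21 AM replicates 1 and 2, and 1962569 and 2198563 tags in Pre AM replicates 1 and 2. No library held a tag with a count of 1, so a 0 can stand for 0 or 1 reads of each tag. Summed levels of 16 alveolar macrophage markers with counts, of 17 listed, were 2846 and 4923 CPM (tags scaled to a common library total) in Day 21 AM and 1986 and 4245 CPM in Pre AM, with Fabp4 at 0 in all. Markers of interstitial or monocyte-derived macrophages (13 with counts of 16 listed, with Folr2, Lyve1 and Itgam at 0) summed to 2281 and 3747 CPM in Day 21 AM and to 68.7 and 176 CPM in Pre AM. The most abundant of these were Apoe, Gpnmb and Ms4a7, and the sum gives such genes the most weight. Neutrophil markers (6 with counts of 8) summed to 76.0 and 278 CPM in Day 21 AM and to 10.8 and 158 CPM in Pre AM, and lung epithelium markers (4 of 9) to 33.1 and 44.9 CPM in Day 21 AM and 82.5 and 155 CPM in Pre AM. All 4 listed T or NK cell markers and all 3 listed B cell markers were at 0, and of 2 liver or carcinoma markers listed Afp had 0 and 0 CPM in Day 21 AM and 0 and 1.23 CPM in Pre AM, with H19 at 0. The part of these other cell types in the results on traffic genes was not tested.

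The tags that carry the main values are shown first, because a gene's value is the sum of tags that were counted separately. In each line the capitals mark the NlaIII site, which precedes the 21 bases that were deposited. These are the most counted tags of the most abundant gene (Arf5), of the 2 genes with the smallest p (Vps52 and Rab44), and of 3 of the 4 genes whose Day 21 AM values were both above the Pre AM values (Snx8, Vps25 and Rab4b). For Rab44 a second tag is given.
Arf5: CATGctctctcttgtcgttggagcc
Vps52: CATGgtggagctgaagaaacacaag
Rab44, tag 1: CATGgggttgtggagaaggaaataa
Rab44, tag 2: CATGgtcctgctgggaaacaagatg
Snx8: CATGgggctccctgaagcaagcgct
Vps25: CATGcgcctgcacaagcttctttct
Rab4b: CATGtcttctccaccagtttattga
Positions come from a match to GENCODE M21 transcripts on GRCm38, and the deposited tables were made on mm9 per the submitters' processing notes. The Arf5 tag lies at chr6:28426297-28426321 on the plus strand, in the 3' UTR within exon 6 of 6. The Vps52 tag lies in coding sequence at chr17:33966069-33966093 on the plus strand, in exon 20 of 20, and it also matched Gm18734. Tag 1 of Rab44 lies in the 3' UTR at chr17:29148942-29148966 and tag 2 in coding sequence at chr17:29145964-29145988, both on the plus strand. The Snx8 tag lies in coding sequence at chr5:140352185-140352209 on the minus strand. The Vps25 tag lies in the 3' UTR at chr11:101259336-101259360 on the plus strand and also matched Ramp2, and the Rab4b tag lies in coding sequence at chr7:27176166-27176190 on the minus strand and also matched Gm21983.

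The 103 genes with counts were read through 256 counted tags, and 70 of them had more than 1. All 256 tags matched their own gene, and 236 matched that gene alone. Tags that matched their own gene alone held 85.5% and 83.1% of the traffic gene counts in Day 21 AM and 80.8% and 88.2% in Pre AM. Of the 103 most counted tags, 67 lay at a transcript's last NlaIII site, 68 lay in a 3' UTR and 35 in coding sequence.

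All 129 genes together took 0.700% and 0.526% of the tags in Day 21 AM replicates 1 and 2, against 0.879% and 0.621% in Pre AM replicates 1 and 2. The exact Clopper-Pearson 95% intervals, which cover counting error only, were 0.688% to 0.7125% and 0.515% to 0.537% in Day 21 AM, and 0.866% to 0.892% and 0.610% to 0.631% in Pre AM. The shares of the groups overlapped, since Day 21 AM replicate 1 lay above Pre AM replicate 2. Arf5 alone held 46.6% and 41.4% of the traffic gene tags in Day 21 AM and 42.5% and 44.2% in Pre AM. Without Arf5 the shares were 0.374% and 0.308% in Day 21 AM, against 0.505% and 0.346% in Pre AM, and they overlapped as well. The lysosomal protease gene Ctsd, the most counted gene of all, took 36.4% and 35.5% of all tags in Day 21 AM and 24.9% and 22.4% in Pre AM. Of the tags outside Ctsd, the 129 genes took 1.10% and 0.816% in Day 21 AM and 1.17% and 0.8001% in Pre AM, and the Pre AM libraries enclosed the Day 21 AM ones.

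In the test across all genes (edgeR quasi-likelihood, Benjamini-Hochberg over 2979 symbols, threshold 0.05), 0 of the 59 traffic genes with enough counts were called. Over all 2979 tested symbols 22 were called, which is 0.739%, with 20 higher (0.671%) and 2 lower (0.0671%) in Day 21 AM. DESeq2 called 0 of the 59 as well, against 0.839% of all symbols. At an unadjusted p under 0.05, 0 traffic genes were higher and 2 were lower, Vps52 and Rab44, against 3.52% of all symbols higher and 2.11% lower (5.64% in either direction). The smallest adjusted p of a traffic gene was 0.690. Without Pre AM replicate 2, when the lone Pre AM library is assumed to vary like the Day 21 AM ones, 2 traffic genes were called, Rab8b higher with an adjusted p of 0.00978 and Vps52 lower with 0.0380, against 2.53% of 3206 symbols (1.97% higher and 0.561% lower).

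The fitted log2 change (Day 21 AM minus Pre AM) had a median of -0.14 over the 59 genes, with quartiles at -0.67 and 0.28 and extremes at -1.71 and 1.23. The median over all tested symbols was -0.07. The change was below 0 in 37 of the 59 genes and above 0 in 22, while 54.4% of all symbols lay below 0 and 45.6% above. The typical 95% interval reached 1.51 log2 units to each side of the estimate, close to the 1.52 of all tested symbols. A missed threshold with such intervals does not show that a gene had the same level in both groups. The remaining 70 genes were not tested, and 44 of these had counts, with totals over the 4 libraries of at most 31 and a median total of 10.

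**Figure D1:**
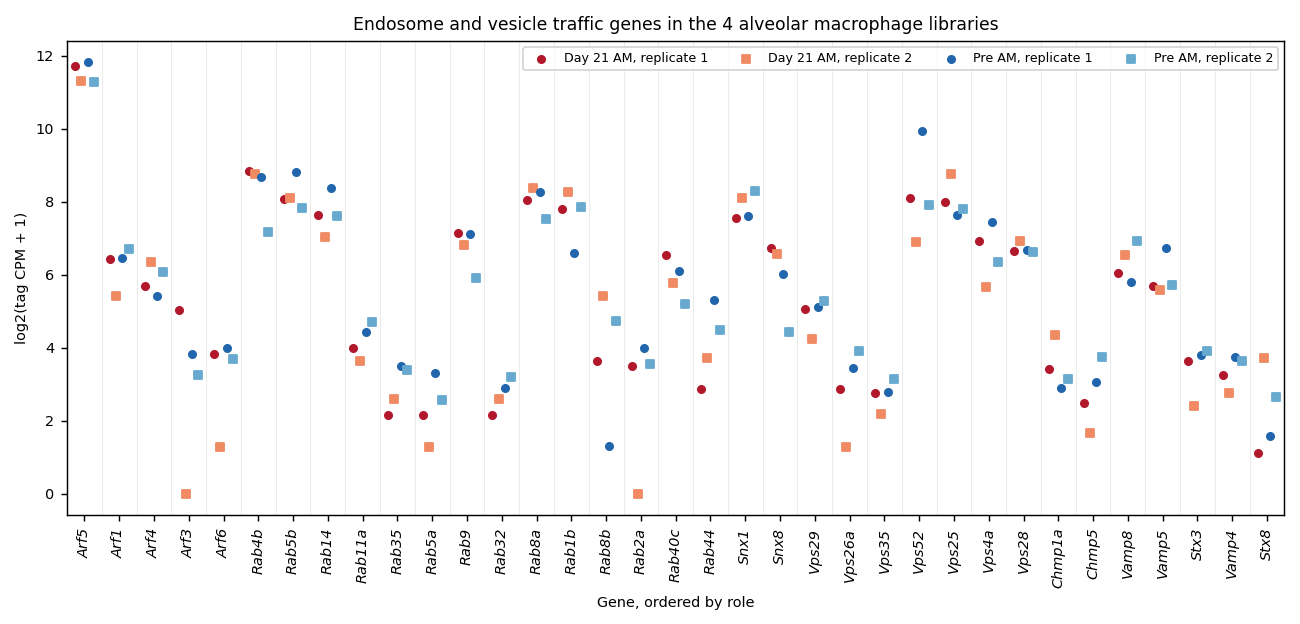
Level of each named gene in each library, as log2(CPM + 1) on the vertical axis, with red and orange for the Day 21 AM libraries and dark and light blue for the Pre AM libraries. Arf5 stands above every other gene in all 4 libraries, Arf3 and Rab2a are at 0 in Day 21 AM replicate 2, and for Vps52 Pre AM replicate 1 lies far above the other 3 libraries.

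Both Day 21 AM values lay above both Pre AM values, or both lay below them, in 18 of the 59 genes (30.5%), against 31.2% of all tested symbols. In 4 genes (Snx8, Chmp1a, Vps25 and Rab4b) both Day 21 AM values were above both Pre AM values, against 15.2% of all symbols. In 14 genes they were below, against 16% of all symbols: Rab44, Vps26a, Chmp5, Rab35, Rab5a, Rab2a, Rab11a, Vamp5, Stx3, Vamp4, Rab32, Arf1, Vps29 and Vps35. Measured on log2(CPM + 1), the gap between group means was smaller than the larger gap between replicates in 51 of the 59 genes (86.4%), against 79.9% of all symbols. The 8 genes with a larger group gap were Chmp5, Rab11a, Rab32, Rab35, Rab44, Rab5a, Vamp4 and Vps26a, and in each the Day 21 AM values were the lower ones. Over all symbols the group gap was the larger one with Day 21 AM lower in 9.47% and with Day 21 AM higher in 10.7%. For Vps26a the gaps were almost equal, at 1.59 for each.

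**Figure D2:**
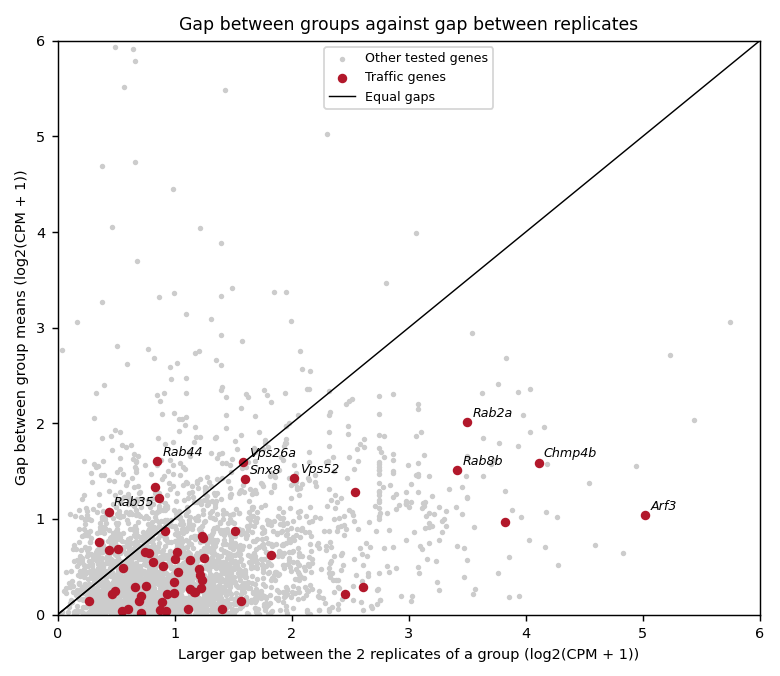
Gap between the group means (vertical) against the larger of the 2 gaps between replicates (horizontal), both on log2(CPM + 1), for the traffic genes (red) and the other tested genes (grey). In 51 of the 59 traffic genes the point lies below the line of equal gaps, and Rab44 and Rab35 lie clearly above it.

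Among the Arf GTPases, 5 of 6 were tested, 2 with a positive and 3 with a negative log2 change (median -0.05). Arf5, which acts between the endoplasmic reticulum and the Golgi, was the most abundant traffic gene, with 3324 and 2528 CPM in Day 21 AM replicates 1 and 2 and 3599 and 2465 CPM in Pre AM replicates 1 and 2. Replicate 1 was the higher one in both groups, and the groups overlapped. Its log2 change was -0.05 ± 0.51 (SE) with a 95% interval of -1.11 to 1.004, the narrowest interval among the genes described here. Arf5 held 94.8% and 95.4% of all Arf tags in Day 21 AM and 95.8% and 92.9% in Pre AM. Arf1, which recruits COPI and clathrin adaptors to the Golgi, had 84.6 and 41.3 CPM in Day 21 AM against 85.9 and 102 CPM in Pre AM. For Arf1 both Day 21 AM values were lower, replicate 1 by little, and the log2 change was -0.58 (95% interval -1.89 to 0.74). Arf4, a close relative of Arf5, had 50.8 and 80.5 CPM in Day 21 AM and 41.2 and 65.8 CPM in Pre AM, with overlapping groups.

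Arf6, which works at the plasma membrane and in endosomal recycling, had 13.1 and 1.42 CPM in Day 21 AM against 14.7 and 11.8 CPM in Pre AM. Day 21 AM replicate 2 stood alone at the low end. Arf3, a close relative of Arf1, had 55 and 0 counts in Day 21 AM and 27 and 21 counts in Pre AM. The Day 21 AM libraries thus held both the highest and the lowest Arf3 value, and the fitted change of 0.55 became -7.41 without Day 21 AM replicate 1 and 1.56 without Day 21 AM replicate 2. Arf2 was not tested, with 7 and 0 counts in Day 21 AM and 9 and 3 counts in Pre AM.

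Of the 13 Rab genes of early and recycling endosomes, 8 were tested, 1 with a positive and 7 with a negative change (median -0.49). Rab5 is the GTPase that drives fusion of early endosomes. Its form Rab5a had 3.43 and 1.42 CPM in Day 21 AM against 8.84 and 4.90 CPM in Pre AM (6 and 2 counts in Day 21 AM against 18 and 12 in Pre AM). The Day 21 AM values were both lower, at low depth, and the log2 change was -1.44 ± 0.997 with an interval of -3.49 to 0.62. Rab5b carried most Rab5 tags, 86.5% and 91.2% in Day 21 AM and 92.4% and 84.2% in Pre AM. It had 267 and 274 CPM in Day 21 AM against 448 and 224 CPM in Pre AM, and the Pre AM libraries enclosed the Day 21 AM values. Rab5c had 38.3 and 24.9 CPM in Day 21 AM and 28.0 and 37.2 CPM in Pre AM, again with overlap.

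Recycling to the surface runs through Rab4, Rab11 and Rab35. Rab4b had 453 and 427 CPM in Day 21 AM against 406 and 141 CPM in Pre AM. Of the Pre AM values, both below Day 21 AM, replicate 1 lay just below and replicate 2 far below. The log2 change was 0.69 ± 0.61 (95% interval -0.58 to 1.95), 1.64 without Pre AM replicate 1 and 0.14 without Pre AM replicate 2. Nearly all of its counts sat in the tag printed above, which also matched Gm21983, and Rab4a was at 0 in all 4 libraries. Rab35 had 3.43 and 4.98 CPM in Day 21 AM against 10.3 and 9.40 CPM in Pre AM. Its replicates lay close together in both groups, the Day 21 AM values were both lower, and the log2 change was -1.23 ± 0.82 with an interval of -2.92 to 0.47.

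Rab11a, of the slow recycling endosome, had 14.9 and 11.4 CPM in Day 21 AM against 20.6 and 24.9 CPM in Pre AM, without overlap. The log2 change was -0.79 (95% interval -2.27 to 0.69). Rab14, which acts between the Golgi and endosomes, had 198 and 130 CPM in Day 21 AM against 329 and 192 CPM in Pre AM. The groups met, since Day 21 AM replicate 1 was above Pre AM replicate 2, and the change was -0.67 ± 0.61 (interval -1.92 to 0.59). Its 2 most counted tags, both in the 3' UTR, gave the same order of libraries in counts as the gene. The next tag, in coding sequence, did not, with 35 and 25 counts in Day 21 AM and 18 and 42 in Pre AM.

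Of 7 late endosome and lysosome-related Rab genes, 3 were tested and the median change was 0.24. Rab9, which serves return from late endosomes to the Golgi, had 140.0 and 110 CPM in Day 21 AM and 136 and 58.4 CPM in Pre AM. Rab7, the GTPase of late endosomes and lysosomes, had 7 and 12 counts in Day 21 AM and 7 and 17 counts in Pre AM. Both overlapped between groups. Rab32, of lysosome-related organelles, had 3.43 and 4.98 CPM in Day 21 AM against 6.38 and 8.17 CPM in Pre AM, with both Day 21 AM values lower and a log2 change of -0.80 (95% interval -2.60 to 1.01).

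Of 18 Rab genes of the secretory pathway and exocytosis, 6 were tested, 4 with a positive and 2 with a negative change (median 0.29). Rab1b, which acts between the endoplasmic reticulum and the Golgi, had 222 and 303 CPM in Day 21 AM and 96.2 and 229 CPM in Pre AM. Day 21 AM replicate 1 lay just below Pre AM replicate 2, so the groups overlapped, and the change was 0.69 ± 0.62 (interval -0.59 to 1.97). The tags of Rab1b did not all order the libraries alike. Its most counted tag, at the end of the coding sequence, had 167 and 173 counts in Day 21 AM and 62 and 217 counts in Pre AM. The tag nearest the 3' end, labelled last site below, had 31 and 40 counts in Day 21 AM and 52 and 89 counts in Pre AM. Each of these tags lies at the last NlaIII site of some Rab1b transcript. These are the tags, the first at chr19:5100474-5100498 and the last at chr19:5099410-5099434, both on the minus strand.
Rab1b, most counted: CATGacaatggctgcagagatcaaa
Rab1b, last site: CATGtcctttgtgctgtctcttgcc

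Rab8a and Rab8b act in transport from the Golgi to the surface. Rab8a had 261 and 327 CPM in Day 21 AM and 308 and 182 CPM in Pre AM, with overlap. Rab8b had 20 and 58 counts in Day 21 AM and 3 and 62 counts in Pre AM. Replicate 1 was the low library in both groups, and the fitted change of 0.95 ranged between -0.21 without Day 21 AM replicate 2 and 4.12 without Pre AM replicate 2. Its most counted tag also matched Gm20689. Rab2a, of traffic between the Golgi and the endoplasmic reticulum, had 18 and 0 counts in Day 21 AM and 30 and 26 counts in Pre AM. Day 21 AM replicate 2 was listed at 0, and the change of -1.24 became -0.26 without it.

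Rab44, an atypical large Rab, and Rab40c, which joins a Rab domain to a SOCS box, were the tested genes outside these roles. Rab44 had 6.28 and 12.1 CPM in Day 21 AM against 38.8 and 21.2 CPM in Pre AM, from 11 and 17 counts in Day 21 AM and 79 and 52 in Pre AM. The groups did not overlap, with Day 21 AM lower. The log2 change was -1.71 ± 0.76 with an interval of -3.26 to -0.15, an unadjusted p of 0.0328 and an adjusted p of 0.740 (edgeR). Without each library in turn the change of Rab44 was -2.21 to -1.21. With groups that lie apart, a turn of sign there was hardly possible. Its tags differed in size of change, since tag 1 had 2 and 0 counts in Day 21 AM against 44 and 12 in Pre AM, while tag 2 had 4 and 10 counts in Day 21 AM against 21 and 10 in Pre AM. Fitted on its most counted tag alone, the change was -4.28. Rab40c had 92.0 and 53.4 CPM in Day 21 AM and 67.2 and 35.5 CPM in Pre AM, with overlap.

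**Figure D3:**
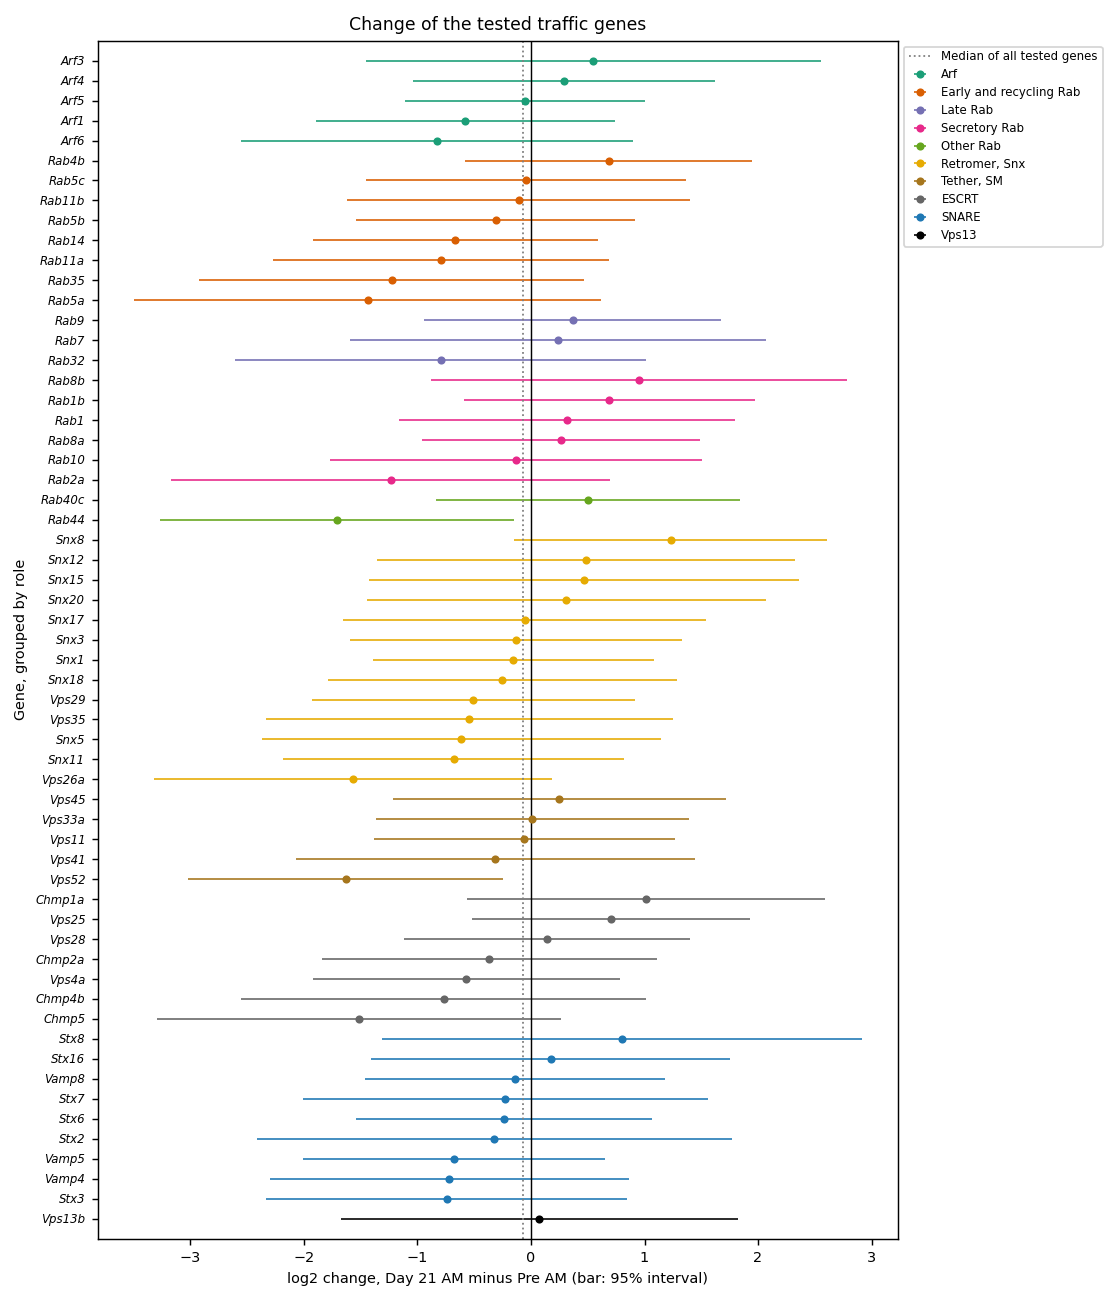
Fitted log2 change (Day 21 AM minus Pre AM) of the 59 tested traffic genes with 95% intervals, grouped and coloured by role, and the median of all tested genes as a dotted line. All intervals but those of Vps52 and Rab44 cross 0.

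Of 32 retromer and sorting nexin genes, 13 were tested, 4 with a positive and 9 with a negative change (median -0.15). The tested subunits of the retromer core, Vps26a, Vps29 and Vps35, had lower values in Day 21 AM, and none passed the test. Vps26a had 6.28 and 1.42 CPM in Day 21 AM against 9.82 and 13.9 CPM in Pre AM. Vps29 had 32.0 and 17.8 CPM in Day 21 AM against 33.4 and 37.6 CPM in Pre AM. Vps35 had 5.71 and 3.56 CPM in Day 21 AM against 5.89 and 7.76 CPM in Pre AM. In all 3 genes both Day 21 AM values were below both Pre AM values, as in 16% of all tested symbols, and narrowly so for Vps29 and Vps35, where Day 21 AM replicate 1 came close to Pre AM replicate 1. The log2 changes were -1.57 (95% interval -3.32 to 0.18) for Vps26a, -0.51 (-1.93 to 0.92) for Vps29 and -0.54 (-2.34 to 1.25) for Vps35. Vps29 and Vps35 were picked out after their values were seen, as were Chmp4b, Rab5c, Rab7, Rab32, Stx3, Vps11, Vps33a and Vps54. Vps26b was at 0 in all libraries.

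Snx8, a sorting nexin of early endosomes, had 104 and 93.3 CPM in Day 21 AM against 63.8 and 20.4 CPM in Pre AM. Both Day 21 AM values were higher and close together, while the Pre AM replicates lay far apart. The log2 change was 1.23 ± 0.67 with an interval of -0.15 to 2.61 and an adjusted p of 0.955 (edgeR). It was the largest positive change among the 59 genes and was 2.27 without Pre AM replicate 1 and 0.65 without Pre AM replicate 2. Almost every count came from the tag printed above, with 182 and 129 counts in Day 21 AM and 128 and 50 counts in Pre AM. Snx1, which partners retromer in tubule formation, had 186 and 271 CPM in Day 21 AM and 193 and 314 CPM in Pre AM, and the groups overlapped.

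Of 11 tethering genes and genes of the SM proteins that guide SNAREs, 5 were tested and the median change was -0.06. Vps52, a subunit of the GARP and EARP tethers of endosome-to-Golgi and recycling traffic, had 274 and 117 CPM in Day 21 AM against 975 and 239 CPM in Pre AM, from 479 and 165 counts in Day 21 AM and 1986 and 586 in Pre AM. Pre AM replicate 1 stood far above the other 3 libraries, and the groups overlapped because Day 21 AM replicate 1 was above Pre AM replicate 2. The log2 change was -1.63 ± 0.67 with an interval of -3.02 to -0.25, an unadjusted p of 0.0228 and an adjusted p of 0.690 (edgeR). Without Pre AM replicate 1 the change was -0.29, so its size rests on that library. Its main tag also matched Gm18734 and its second tag matched 2410017I17Rik, so these counts cannot be given to Vps52 alone. Its partners in the tether were barely counted, with Vps53 at 0 in all libraries and Vps54 at 8 and 2 counts in Day 21 AM and 16 and 4 counts in Pre AM. Vps33a and Vps11 of the HOPS and CORVET tethers had changes of 0.01 (95% interval -1.36 to 1.39) and -0.06 (-1.38 to 1.27).

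**Figure D4:**
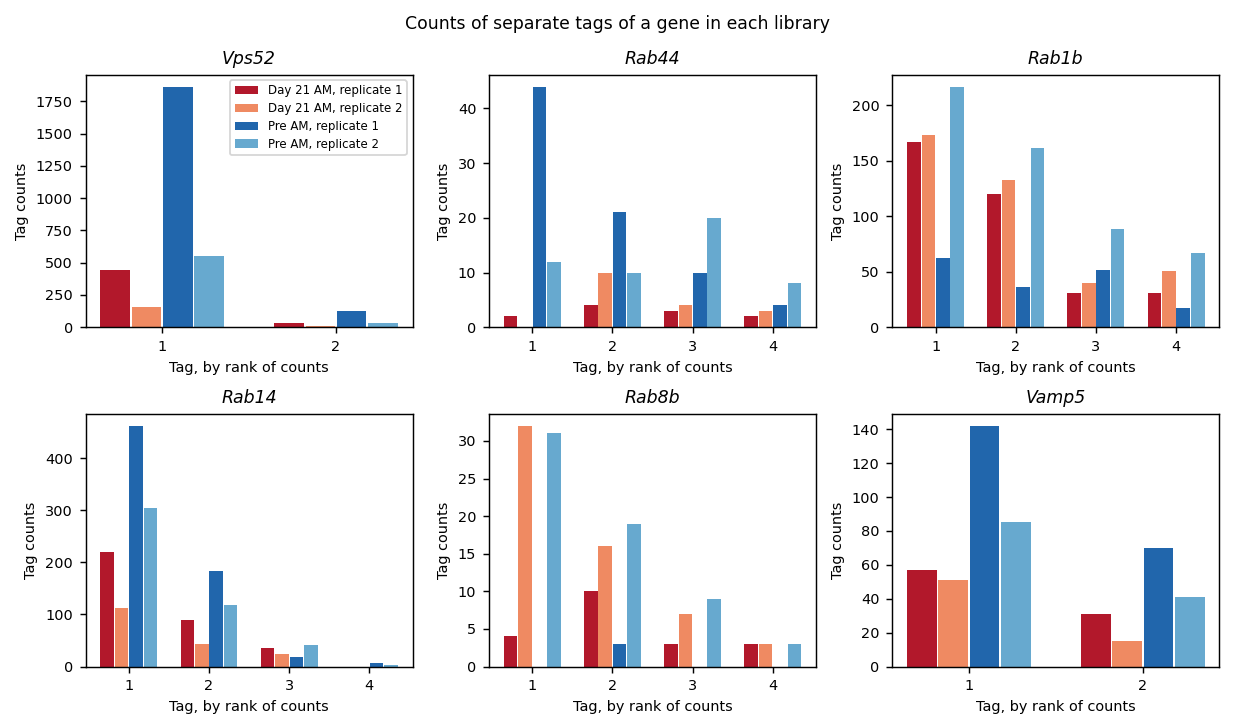
Counts of separate tags of 6 genes in each library, with tags ranked by their counts and red and orange for Day 21 AM left of dark and light blue for Pre AM. Both tags of Vps52 are highest in Pre AM replicate 1, the tags of Rab1b order the libraries differently, and tag 1 of Rab44 has 2 and 0 counts in Day 21 AM against 44 and 12 in Pre AM.

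Of 16 ESCRT genes, 7 were tested, 3 with a positive and 4 with a negative change (median -0.37). Vps28, of ESCRT-I, had 98.8 and 119 CPM in Day 21 AM and 101 and 96.4 CPM in Pre AM, with a change of 0.14 (95% interval -1.12 to 1.40). Vps25, of ESCRT-II, had 254 and 428 CPM in Day 21 AM against 199 and 219 CPM in Pre AM. Both Day 21 AM values were higher, with a change of 0.71 ± 0.59 (interval -0.52 to 1.93). Each counted tag of Vps25 also matched Ramp2, so these counts cannot be given to Vps25 alone.

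Vps4a, the ATPase that takes ESCRT filaments apart, had 120.0 and 49.8 CPM in Day 21 AM and 173 and 79.7 CPM in Pre AM, with overlap. Chmp4b, the main filament subunit, had 136 and 5 counts in Day 21 AM and 228 and 68 counts in Pre AM, and its replicates differed by more than its groups. Chmp5 had 4.57 and 2.14 CPM in Day 21 AM against 7.36 and 12.3 CPM in Pre AM, both lower, with a change of -1.51 ± 0.86 (interval -3.29 to 0.27). Chmp1a had 9.71 and 19.2 CPM in Day 21 AM against 6.38 and 7.76 CPM in Pre AM, both higher, with a change of 1.02 ± 0.76 (interval -0.56 to 2.59). Its second tag, with 3 and 12 counts in Day 21 AM and 7 and 4 in Pre AM, also matched Gm8515. With tags that match only Chmp1a the change was 0.99. Chmp5 and Chmp1a, both accessory proteins of ESCRT-III, thus had values on opposite sides, and neither passed the test.

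Of 18 SNARE genes, 9 were tested, 2 with a positive and 7 with a negative change (median -0.24). Vamp8, an endosomal SNARE, had 65.1 and 92.6 CPM in Day 21 AM and 54.5 and 119 CPM in Pre AM, and the Pre AM libraries enclosed the Day 21 AM values. Vamp5, a Vamp first described in muscle, had 50.3 and 47.0 CPM in Day 21 AM against 104 and 51.5 CPM in Pre AM. Day 21 AM was lower in both libraries, though close to Pre AM replicate 2, and the change was -0.68 ± 0.65 (interval -2.01 to 0.66). Its 2 tags start at neighbouring NlaIII sites and overlap, at chr6:72369097-72369121 and chr6:72369092-72369116 on the minus strand, and both had their highest count in Pre AM replicate 1.
Vamp5, tag 1: CATGccatggactggcccttgagag
Vamp5, tag 2: CATGgactggcccttgagagtggac
Vamp4, of the trans-Golgi network, had 8.57 and 5.70 CPM in Day 21 AM against 12.3 and 11.4 CPM in Pre AM, with a change of -0.72 (95% interval -2.30 to 0.86). Vamp2 (5 and 2 counts in Day 21 AM, 3 and 7 in Pre AM) and Vamp3 (2 and 0 counts in Day 21 AM, 0 and 8 in Pre AM) were too low to test, and Vamp7 was at 0 throughout.

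Stx3, a plasma membrane syntaxin, had 11.4 and 4.27 CPM in Day 21 AM against 12.8 and 13.9 CPM in Pre AM, without overlap, and its change was -0.74 (95% interval -2.33 to 0.85). Stx8, a syntaxin of late endosomes, had 2 and 17 counts in Day 21 AM and 4 and 13 counts in Pre AM, so replicate 2 was higher in both groups. Its change of 0.80 was -1.60 without Day 21 AM replicate 2.

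A few genes were counted in 1 group alone, with at most 6 counts in any library, and no fold is given for them. Rab28 (3 and 5 counts), Stx12 (2 and 6), Vps36 (4 and 4) and Vps72 (4 and 5) had counts in both Pre AM libraries and 0 in both Day 21 AM libraries. Snx22 (5 and 2) and Vps13c (2 and 3) had counts in both Day 21 AM libraries and 0 in both Pre AM libraries. The share of all symbols counted in 1 group alone is not given here, so the 2 directions are not compared. Over all symbols, 5330 and 4754 had counts in Day 21 AM and 5615 and 5859 in Pre AM. Genes at 0 in all 4 libraries included Rab27a and Rab27b, which act in secretion of granules and exosomes, Rab3d, Rab38, Vps33b and Stx11.

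Regulators, coats and partners of these families were read from 7 lists with 241 genes, of which 98 were tested. With edgeR 0 of these were called higher and 0 lower, against 0.739% of all symbols, and with DESeq2 0 in either direction, against 0.839%. The median log2 change was -0.08. At an unadjusted p under 0.05, 1 was higher (Vapb) and 2 were lower (Ap2a2 and Hgs), against 3.52% of all symbols higher and 2.11% lower. The list medians lay between -0.27 for 14 Rab regulators and effectors and 0.23 for 16 genes of the COPI and COPII coats, where 10 changes were positive and 6 negative. Ap2m1 and Ap2a2 encode subunits of AP-2, the adaptor that gathers cargo for clathrin at the plasma membrane. They were the 2 most abundant genes of their list and had the same library standing apart as Vps52. Other AP-2 subunits are not given here. Ap2m1 had 1663 and 2111 CPM in Day 21 AM against 5763 and 1950 CPM in Pre AM, with a change of -1.03 (SE 0.56). Ap2a2 had 626 and 367 CPM in Day 21 AM against 1914 and 574 CPM in Pre AM, with a change of -1.32 (SE 0.61). In both genes Pre AM replicate 1 was far above the other 3 libraries. M6pr, a mannose phosphate receptor that cycles between the Golgi and endosomes, had 2458 and 2139 CPM in Day 21 AM and 2642 and 1788 CPM in Pre AM, with a change of 0.05 (SE 0.52). Hgs, the ESCRT-0 subunit that gathers ubiquitinated cargo, had 2 and 0 counts in Day 21 AM against 11 and 12 counts in Pre AM. Vapb, which tethers the endoplasmic reticulum to other membranes, had 68 and 49 counts in Day 21 AM against 10 and 47 counts in Pre AM, and Pre AM replicate 1 was the low library.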

How the data were processed

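The 4 deposited tables hold raw tag counts made by the authors, per the file headers and the values, with a symbol and a RefSeq accession per tag. Per the submitters' processing notes the genome was mm9, while the software and count filter were, in the sources used here, not given. Tags were summed per deposited symbol. PCR copies were not told apart. The Clopper-Pearson intervals of shares cover counting error only, while the intervals of log2 changes also take in the spread between replicates. The test was edgeR's quasi-likelihood test (edgeR 4.0.16 in R 4.3.3, limma 3.58.1), with TMM normalisation, filterByExpr (minimum count 10, minimum total 15), group as the only term and Benjamini-Hochberg adjustment over 2979 symbols, and tried on simulated data. CPM use TMM-scaled totals. The SE is the log2 change over the root of F. Residual degrees of freedom were 2 per gene and the biological coefficient of variation 0.482. The test also pools the spread over all tested symbols, so its p-values and intervals borrow precision from other genes and are narrower than 2 degrees of freedom would give. Replicate pairs differed beyond counting noise, with a chi-square of 44.3 per degree of freedom in Day 21 AM and 59.6 in Pre AM. Tags were matched after CATG to GENCODE M21 transcripts. Other scalings, filters, tag sums, name sources, DESeq2 1.42.0, a replicate block and leaving out each library were tried.

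Named genes are the 12 most abundant, the 10 higher and 10 lower ones of smallest p, and all Arf and Vamp genes with counts. In partner lists the rule took the 2 most abundant and up to 2 of smallest p. Only some of these partner genes are described. Further genes were named after their values were seen. The genes and lists were chosen with earlier results of these data known.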

Additional observations from a re-analysis of the deposited data

How the results depend on the processing

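The count of all called symbols, 22, was 9 with the most counted tag alone, 41 without a filter on low counts, 37 with the replicate block, 9 with total counts alone and 11 with tags that match only their own gene (chosen after seeing the data). It was 9 to 81 when 1 library was left out. The count of called traffic genes was 0 in each of these settings except those that leave out 1 library, where it was 0 to 2, and the count of called partner genes was 0 to 1 there (Gak, without Pre AM replicate 2). The median change of the traffic genes was -0.40 with total counts alone, where the median of all symbols moved to -0.29, and -0.51 to -0.029 with 1 library left out. Genes with groups apart numbered 11 at a minimum count of 20 (27.5%, against 30.2% of all symbols), 28 without a filter (27.2%, against 27.5%) and 33 to 47 with 1 library left out (50% to 71.2%, against 51.2% to 77.9%).

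Signs turned for Arf3 with the replicate block (-0.23), Arf5 with upper-quartile scaling (0.0027) and Vps28 with total counts alone (-0.090), and the cause was not tested. With 1 library left out, changes spanned -7.41 to 1.56 for Arf3, -0.040 to 0.70 for Arf4, -0.28 to 0.25 for Arf5, -3.11 to 0.020 for Arf6, -0.70 to 0.27 for Rab5b, -0.043 to 0.69 for Rab8a, -0.21 to 4.12 for Rab8b, -0.10 to 1.10 for Rab9, -0.46 to 0.26 for Snx1, -1.60 to 1.75 for Stx8, -0.60 to 0.56 for Vamp8 and -1.29 to 0.10 for Vps4a. In 22 of 35 named genes the sign held in every setting run. Vps52, Vps25 and Rab4b, among these 22, had no fit with tags that match only their own gene. Where groups lie apart, leaving out 1 library can hardly turn the sign, so such genes add little to the count. Rab32, Stx3, Vps29 and Vps35, also among the 22, were picked after their values were seen, and their groups lay apart. Chmp4b, Rab5c, Rab7, Vps11 and Vps33a, also picked then, were not followed across settings. The count is therefore not a share of all genes named here.

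Same-numbered libraries deviated together (correlation 0.54 over 2979 symbols), but the labels do not tie the numbers to a shared batch. With the replicate block 37 symbols and 0 traffic genes were called. With 2 libraries a group and wide intervals, the data cannot tell small differences in these genes from replicate spread.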

Other observations

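Symbols that continue after the number were left out by the naming rule, and 8 of them are listed. Of the 6 tested, 2 had a positive and 4 a negative log2 change. Rab11fip5, a Rab11 effector, had 14.9 and 18.5 CPM in Day 21 AM against 7.85 and 6.54 CPM in Pre AM, with a log2 change of 1.21 ± 0.75 (95% interval -0.33 to 2.75). Rab3il1, an exchange factor for Rab proteins, had 7.43 and 12.8 CPM in Day 21 AM against 1.96 and 4.49 CPM in Pre AM, with a change of 1.60 ± 0.86 (95% interval -0.18 to 3.38). In both genes the Day 21 AM values were above the Pre AM values, as in 15.2% of all tested symbols, and neither passed the threshold. Rab7l1 had 4.57 and 2.85 CPM in Day 21 AM against 5.89 and 6.54 CPM in Pre AM, with a change of -0.72. Its Day 21 AM values were both below the Pre AM values, as in 16% of all tested symbols. The changes of Rab11fip1, Rab3gap1 and Rab3ip were -0.36, -0.44 and -0.17. Tbc1d2, a Rab GTPase-activating protein, had 161 and 101 CPM in Day 21 AM against 93.3 and 44.1 CPM in Pre AM, and Tmed9, a cargo receptor of early secretory traffic, had 17.7 and 28.5 CPM in Day 21 AM against 8.84 and 10.6 CPM in Pre AM, with both Day 21 AM values higher in each gene. Copb1, a COPI coat subunit, had 8 and 5 counts in Day 21 AM against 23 and 32 counts in Pre AM, both lower. Of the 98 tested partner genes, groups lay apart with Day 21 AM higher in 20 and lower in 13.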
